A study of Rattus norvegicus with 6 samples.

Results

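The genes described here build the sarcomere, the contractile unit of striated muscle: the thick filaments of myosin, the thin filaments of actin, and the Z-disc and M-band that hold them in register. They were chosen by a list of 45 gene symbols. The rule uses no measured value, but its list was drawn up with earlier results of these data known. Of the 45 symbols, 44 matched 45 of the 30957 rows of the deposited gene table (Myot has 2 rows), and titin (Ttn) was not analysed here. Every library was made from a toe flexor of the hind limb, the flexor digitorum longus, taken from wild-type Sprague-Dawley rats. In the ACS group (3 libraries, 18 h) the rats had acute osteofascial compartment syndrome, a state in which swelling within tight fascia raises pressure and starves the muscle of blood. The control group (3 libraries) was taken at 0 h. A band of low elasticity, tied at the knee, produced ACS. The controls stand at another time as well as without ACS, so these cannot be told apart. The labels give neither age nor the number of rats behind a library, so each p-value reflects only how far these libraries spread, and that spread may be technical.

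In a sarcomere, myosin heads on the thick filament pull on actin when calcium binds troponin C and the troponin and tropomyosin strand moves off the myosin-binding sites. Most of these proteins exist as fast and slow isoforms made from separate genes, and their mix sets how quickly a fibre shortens and how long it resists fatigue. Embryonic and perinatal isoforms are made during development and again in regenerating fibres.

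None of the 42 members tested with edgeR passed the threshold. The slow isoforms had lower mean levels in ACS muscle in 9 of 9 cases, with a median log2 fold change of -0.92. Of all 12873 genes tested, 6526 had a log2 fold change below 0. The list of slow isoforms was drawn up with earlier results of these data known, so its shared direction is a description only. The 9 fast isoforms had a median of 0.12, which turned to -0.17 when libraries were scaled by their totals. All 12873 genes tested had a median of -0.011, or -0.32 with that scaling, under which 9 of 9 slow isoforms were still lower. The fast median also depended on ACS replicate 3. Without that library it was -0.26, with 8 of 9 fast isoforms below 0. Without replicate 3 of both groups it was -0.35, again with 8 of 9 below 0. The slow medians were then -0.85 and -0.91, with 9 of 9 below 0 each time. The summed level of the slow isoforms was 3384 ± 416 CPM (counts scaled to library size with TMM factors) in control and 1923 ± 581 CPM with ACS (SD over 3 libraries per group). That of the fast isoforms was 95715 ± 2115 and 103648 ± 48311 CPM. Fewer slow fibres and less slow-isoform mRNA per fibre cannot be told apart in whole muscle. Around the filaments, other genes passed the edgeR threshold, though not without any 1 of the control libraries: the repair protein Xirp1, the ubiquitin ligase Trim63, the thin-filament partner Klhl40 and the titin-binding Ankrd1 rose, and the myosin gene Myh7b fell.

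Of the 45 matched rows 42 passed the filter on low counts and were tested with edgeR's quasi-likelihood test, with p-values adjusted by Benjamini-Hochberg over all 12873 genes. At an adjusted p under 0.05, 0 members were higher and 0 lower, against 3.43% and 0.707% of all genes tested. At an unadjusted p under 0.05, 1 member was higher and 5 were lower, with backgrounds of 15.5% and 7.98%. DESeq2 called 0 members higher and 3 lower (Myl3, Tnni1 and Myoz2, all slow isoforms, adjusted p = 0.00988, 0.0419 and 0.0192), where it called 8.86% and 2.88% of genes, while limma-voom called 0 (background 2.04% higher, 0.552% lower) and limma on log2(FPKM + 1) called 0 (background 2.26% and 2.43%). Scaling by library totals called Myoz2 lower, against 2.66% of genes higher and 1.75% lower. Without ACS replicate 1, Mybph was called higher (background 4.99%) and Myl2 lower (1.69%). Without ACS replicate 2, Tnni1 was called lower (0.129%, and 2.14% of genes were higher). Without ACS replicate 3 no member was called, although 9.72% of genes were higher and 3.01% lower. Without any 1 of the controls 0 genes of all were called. The groups did not overlap for 7 members, all lower in ACS: Myh7, Myl2, Myl3, Myl4, Tnnc1, Lmod3 and Myoz2. That is near the background, since 14.8% of all genes tested were separated downward in the same way and 16.7% upward. Of the 7, 5 are slow isoforms. Member log2 fold changes ran from -2.07 to 1.55 with a median of -0.22, and their standard errors from 0.29 to 1.01.

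**Figure D1:**
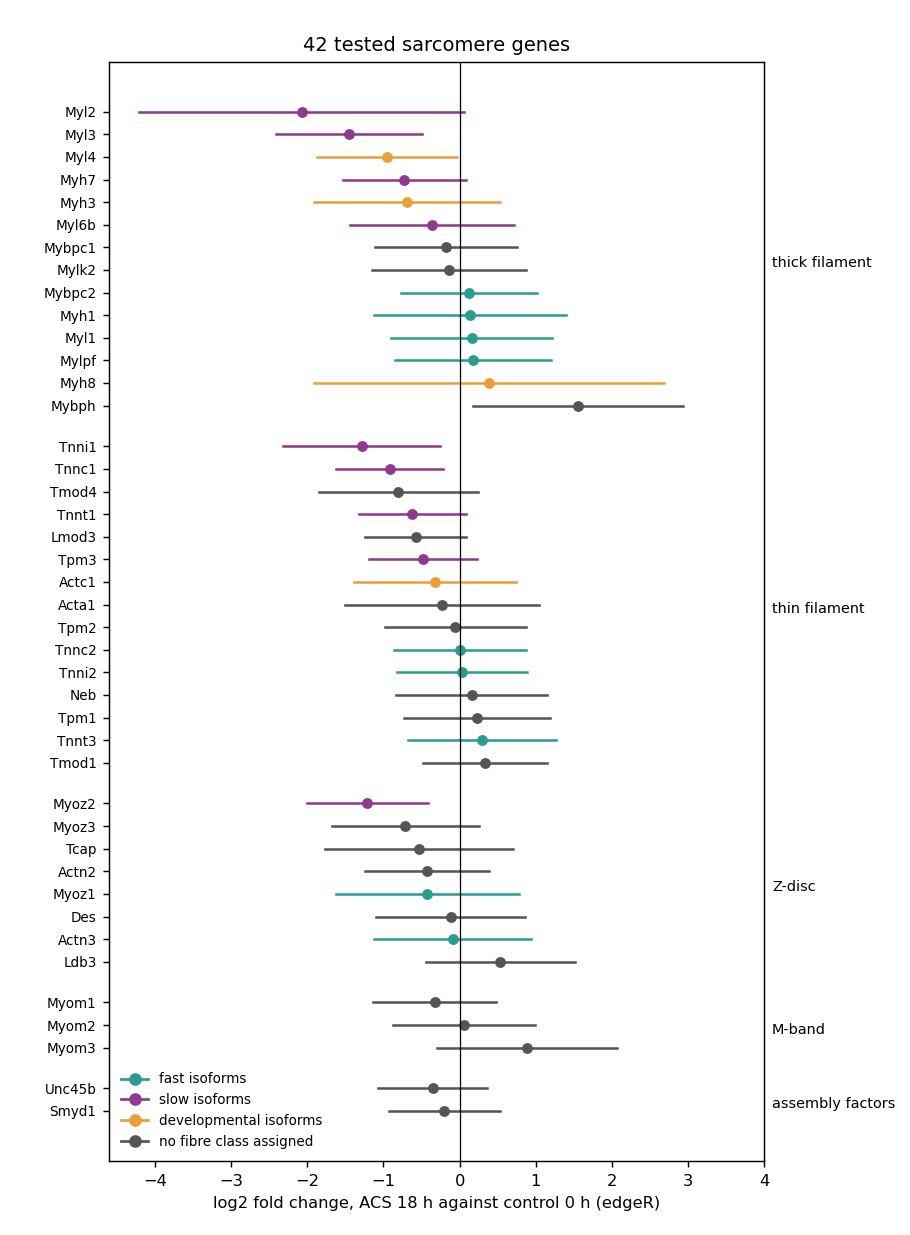
Log2 fold change of ACS 18 h against control 0 h (x axis, edgeR) for each tested sarcomere gene (y axis, by role); points are estimates, lines are 95% intervals, and colours mark fast, slow and developmental isoforms. The purple slow isoforms all lie left of 0, from -2.07 to -0.36, and the green fast isoforms lie between -0.43 and 0.29.

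The libraries held between 14340865 and 21003928 counts. ACS replicate 1 stood apart: genes of the mitochondrial chromosome took 43.4% of its counts, against 4.82% and 5.33% in the other ACS libraries and 7.52% to 8.6% in control. For the members the results turn on, the log2 fold change is also given without it. Markers of skeletal muscle (Ckm, Pvalb, Atp2a1, Ryr1, Cacna1s, Casq1, Mb, Pygm) were present in every library, at a summed 42351 to 54625 CPM in control and 24172 to 56958 CPM in ACS muscle. Of 7 heart markers, Myl7, Nppa, Nppb, Tnni3 and Mybpc3 had 0 to 8 counts in any library. The other two were present: Myh6, nearly identical to Myh7, measured 143, 81.1 and 31.6 CPM in control and 23.6, 85.5 and 42.3 CPM in ACS muscle, and Tnnt2 had 26, 70 and 21 counts in control and 9, 15 and 12 counts in ACS muscle. The heart list summed to 32.8 to 145 CPM in control and 25.5 to 86.3 CPM in ACS muscle, with none called. Of 7 leucocyte markers 6 were tested with edgeR and 4 rose (S100a8, S100a9, Itgam and Csf3r), against 3.43% of all genes tested. The T-cell marker Cd3e had too few counts to test. The count of called markers was 6 with DESeq2, 0 with limma-voom, 1 with a term for the 2 libraries whose description carries "ji", 0 without them, and 0 without any 1 control library. Their summed level was 7.55 to 11.2 CPM in control and 493, 34.6 and 86.95 CPM in ACS replicates 1, 2 and 3. The part of those cells in the values below was not tested.

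Sarcomere genes took a large part of every library. The members held 23.6%, 24.1% and 23.2% of the counts in control muscle and 11.1%, 19.5% and 28.2% in ACS replicates 1, 2 and 3. The control libraries lay close together and the ACS libraries on both sides of them, so the groups overlapped. The means were 23.6% ± 0.481 and 19.6% ± 8.59 (SD, n = 3 each; two-sided exact permutation p = 0.7). Without ACS replicate 1 the difference turned from -4.01 to 0.27 percentage points. Of the counts outside the mitochondrial chromosome the members held 25.8%, 26.3% and 25.04% in control and 19.5%, 20.5% and 29.8% in ACS muscle. The row named Myh1, the skeletal actin Acta1 and the thin-filament ruler nebulin (Neb) led, with 6.61%, 5.54% and 3.38% of control replicate 1. Acta1 took 1.29% of ACS replicate 1, less than in any other library, where it lay between 3.8% and 5.54%.

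**Figure D2:**
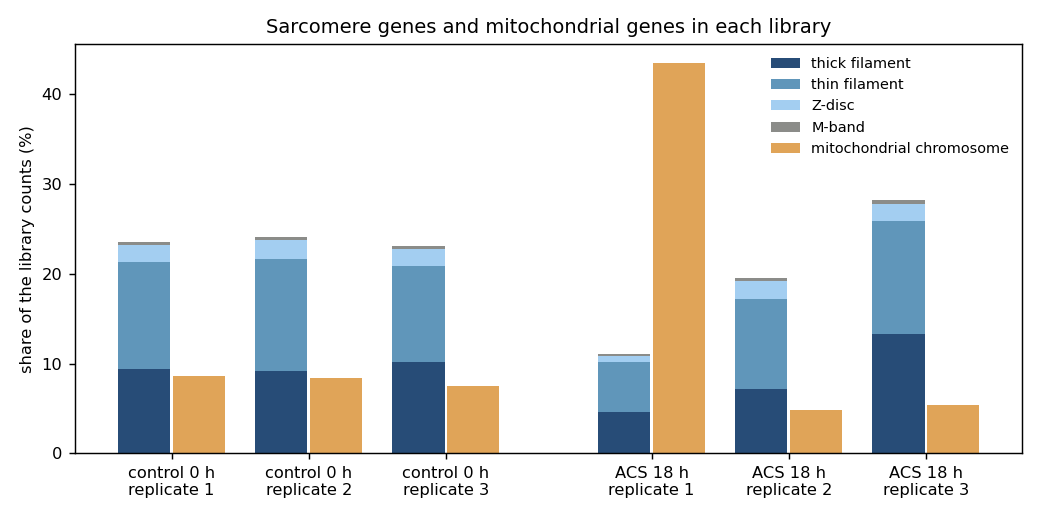
Share of each library's counts (y axis, %) taken by thick filament, thin filament, Z-disc and M-band members (stacked bars; Smyd1 and Unc45b are left out) and by the mitochondrial chromosome (single bars), for 3 control and 3 ACS libraries (x axis). The control bars are alike, and ACS replicate 1 has the lowest sarcomere share at 11.1% and the highest mitochondrial share at 43.4%.

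Among the myosin heavy chains, the motors of the thick filament, the slow chain Myh7 (ENSRNOG00000016983, chr15:33634422-33656089 on Rnor 6.0) measured 2202, 2107 and 1789 CPM in control and 1037, 1688 and 967 CPM in ACS muscle. Every ACS library lay below every control library, and replicate 2 came closest. Its neighbour Myh6 is nearly identical, so the division of reads between them is uncertain. The log2 fold change of Myh7 was -0.72 (SE 0.352, adjusted p = 0.253), with a 95% interval of -1.53 to 0.08, and -0.62 without ACS replicate 1. The row named Myh1, the adult fast IIx chain, covers chr10:53713938-53848347, and the length behind its FPKM (counts scaled to gene length and library size) is 19176 bases, against 5923 for Myh7. In RefSeq's order of genes on the later assembly GRCr8, the fast chains Myh2, Myh1 and Myh4 stand side by side between Myh3 and Myh8. The deposited row overlaps that of Myh8 and may hold reads of these neighbours, so it is read here as adult fast myosin without a division into types. It measured 60768, 48528 and 63265 CPM in control and 42084, 44862 and 102503 CPM in ACS muscle. ACS replicate 3 was the highest of all libraries and ACS replicate 1 the lowest, and the log2 fold change was 0.13 (SE 0.552, adjusted p = 0.904).

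The developmental heavy chains were scarce. Embryonic Myh3 measured 121, 69.99 and 82.7 CPM in control and 16.1, 65.1 and 88.3 CPM in ACS muscle, lowest in ACS replicate 1, with overlapping groups (log2 fold change -0.69, adjusted p = 0.469, or -0.25 without that library). Perinatal Myh8 had 219, 36 and 46 counts in control and 4, 236 and 106 counts in ACS muscle, and its log2 fold change of 0.38 has a 95% interval of -1.91 to 2.68. Its row shares sequence positions with the Myh1 row, so these counts are uncertain. At 18 h neither developmental chain was detectably higher in ACS muscle. Embryonic and atrial light chain Myl4 measured 25.7, 29.6 and 17.9 CPM in control and 6.08, 13.9 and 17.8 CPM in ACS muscle, with every ACS library below every control library (log2 fold change -0.95, adjusted p = 0.199, or -0.63 without ACS replicate 1). The cardiac actin Actc1, the main actin of fetal muscle, measured 12.1, 13.7 and 18.05 CPM in control and 4.49, 18.7 and 11.6 CPM in ACS muscle, and its groups overlapped.

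The slow light chains, which sit on the neck of the myosin head, had lower mean levels in ACS muscle. The essential light chain Myl3 (ENSRNOG00000020955, chr8:119030875-119036996), shared by slow fibres and the ventricle, measured 374, 369 and 198 CPM in control and 77.3, 181 and 84.4 CPM in ACS muscle. All ACS libraries lay below all controls, replicates 1 and 3 far below and replicate 2 just under control replicate 3. Its log2 fold change was -1.46 (SE 0.421, adjusted p = 0.0827), or -1.25 without ACS replicate 1, and -1.99 without ACS replicate 2 (adjusted p = 0.0524). The slow regulatory light chain Myl2 had 453, 375 and 511 counts in control and 0, 160 and 109 counts in ACS muscle. Its row of 480 bases averaged 20.4 CPM in control, against 314 CPM for Myl3. Whether this low level reflects the transcript or how reads were assigned to the row was not tested. A count of 0 at the depth of ACS replicate 1 allows up to 3 counts, or 0.281 CPM, and covers counting error only. The log2 fold change of Myl2 was -2.07 (SE 0.937, adjusted p = 0.223), and -1.51 without ACS replicate 1, where it passed (adjusted p = 0.0159). Myl6b, an alkali light chain of slow and embryonic muscle, measured 19.02, 48.4 and 21.9 CPM in control and 16.8, 37.9 and 14.7 CPM in ACS muscle, with overlapping groups.

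The fast light chains did not follow. Myl1, the essential chain of fast fibres, measured 5779, 6913 and 5305 CPM in control and 3467, 6533 and 10059 CPM in ACS muscle, and Mylpf, the fast regulatory chain, 4779, 7633 and 4042 CPM in control and 4682, 4845 and 9056 CPM in ACS muscle. In both, ACS replicate 3 was the highest library and the groups overlapped, with log2 fold changes of 0.16 and 0.18 (adjusted p = 0.864 and 0.84). Both turned negative when scaled by library totals, at -0.11 and -0.12, where the median of all genes was -0.32. Mylk2, the kinase that phosphorylates the fast regulatory chain, measured 1404, 903 and 1454 CPM in control and 528, 1447 and 1439 CPM in ACS muscle, lowest in ACS replicate 1.

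The myosin-binding proteins, which lie across the thick filament and tune the reach of the heads, split by member. Mybpc1 (slow type, also made in fast fibres) and Mybpc2 (fast type) had overlapping groups, at 7534 ± 2086 against 6628 ± 1565 CPM and 5124 ± 488 against 5571 ± 1748 CPM in control and ACS muscle (SD, n = 3 each). Mybph, a smaller relative of these, had the largest positive log2 fold change of the members. It measured 13.99, 9.96 and 23.4 CPM in control and 14.97, 89.3 and 34.3 CPM in ACS muscle. ACS replicate 2 was far above all others, while ACS replicate 1 lay within the control range. The log2 fold change was 1.55 (SE 0.606, adjusted p = 0.168), 0.61 without ACS replicate 2 and 1.97 without ACS replicate 1, where it passed (adjusted p = 0.036).

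On the thin filament, Acta1, the skeletal alpha-actin and the most abundant member per length, measured 38566, 37564 and 26488 FPKM in control and 9015, 28482 and 35596 FPKM in ACS muscle. Only ACS replicate 1 stood clear of the rest, and the log2 fold change was -0.24 (SE 0.558, adjusted p = 0.825), or 0.10 without that library. Nebulin, which runs along the thin filament and helps set its length, differed little between libraries, at 31055, 30033 and 33019 CPM in control and 31292, 35952 and 37751 CPM in ACS muscle. Its 95% interval ran from -0.83 to 1.15 on the log2 scale. The tropomyosins Tpm1 and Tpm2, which cover the myosin-binding sites of actin, had log2 fold changes of 0.23 and -0.06 with overlapping groups. Tpm3, the slow-fibre tropomyosin, measured 254, 303 and 226 CPM in control and 228, 207 and 126 CPM in ACS muscle, with ACS replicate 3 low and ACS replicate 1 within the control range (log2 fold change -0.48, adjusted p = 0.381).

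Troponin, the calcium switch, has a calcium-binding (C), an inhibitory (I) and a tropomyosin-binding (T) subunit, each with a slow and a fast gene. The slow inhibitory subunit Tnni1 (ENSRNOG00000009073, chr13:52624878-52637297) measured 318, 379 and 202 CPM in control and 84.9, 209 and 74.6 CPM in ACS muscle. ACS replicate 2 lay just above control replicate 3, so the groups overlapped, while ACS replicates 1 and 3 were lower than any control. The log2 fold change was -1.29 (SE 0.451, adjusted p = 0.13), -1.08 without ACS replicate 1, and -1.95 without ACS replicate 2, where it passed (adjusted p = 0.0497). Slow and cardiac Tnnc1 (ENSRNOG00000018943, chr16:7292096-7295465) measured 113, 150.4 and 116 CPM in control and 47.9, 92.8 and 59.9 CPM in ACS muscle. Its groups did not overlap. Its log2 fold change was -0.92 (SE 0.31, adjusted p = 0.119), or -0.73 without ACS replicate 1. Slow Tnnt1 measured 175, 237 and 194 CPM in control and 176, 123 and 94.3 CPM in ACS muscle. ACS replicate 1 lay just above the lowest control, and the log2 fold change was -0.62 (SE 0.307, adjusted p = 0.26), or -0.89 without that library.

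The fast troponin genes were far more abundant and did not differ beyond their spread. Tnni2 measured 2856, 3668 and 2667 CPM in control and 2682, 2468 and 4207 CPM in ACS muscle. Tnnt3 and Tnnc2 stood at 5595 ± 762 against 6855 ± 2560.2 CPM and 4084 ± 827 against 4102 ± 1005 CPM (SD, n = 3 each, control against ACS). Their log2 fold changes were 0.03, 0.29 and 0.01, with 95% intervals of -0.83 to 0.88, -0.68 to 1.26 and -0.86 to 0.87, intervals that reach well to both sides of 0.

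At the pointed end of the thin filament, Lmod3, a leiomodin that starts and lengthens actin filaments, measured 213, 220.5 and 185 CPM in control and 145, 96.99 and 171 CPM in ACS muscle. The groups did not overlap, and the log2 fold change was -0.58 (SE 0.29, adjusted p = 0.266), or -0.62 without ACS replicate 1. Tmod1 and Tmod4, tropomodulins that cap the same end, had log2 fold changes of 0.34 and -0.81 with overlapping groups. Tmod4 measured 629, 1473 and 505 CPM in control and 350.0, 522 and 619 CPM in ACS muscle. Control replicate 2 was far above the rest, and without it the log2 fold change of Tmod4 was -0.24. Tmod1 overlaps a gene on the opposite strand, so its reads are uncertain. Lmod2, another leiomodin, had no count in any library. Its whole row overlaps a gene on the opposite strand, so these zeros do not show that its transcript was absent.

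At the Z-disc, which anchors the thin filaments, Myoz2 (ENSRNOG00000014815, chr2:227180886-227207635) had the smallest adjusted p of all members. It encodes calsarcin-1, a protein of slow fibres and heart that binds alpha-actinin and the phosphatase calcineurin. It measured 97.6, 57.99 and 138 CPM in control and 45.3, 33.4 and 48.2 CPM in ACS muscle. The ACS libraries lay close together and below all controls, which spread widely. The log2 fold change was -1.21 (SE 0.347, adjusted p = 0.0816), or -1.26 without ACS replicate 1 and -0.92 without control replicate 3, the highest. It passed when scaled by library totals (-1.55, adjusted p = 0.0487). Its relatives Myoz1, of fast fibres, and Myoz3 had overlapping groups and log2 fold changes of -0.43 and -0.72.

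The 2 slow isoforms with the smallest adjusted p and a RefSeq promoter window, Myoz2 and Myl3, are shown with Acta1, the most abundant thin-filament gene per length, because known muscle control elements can be read in them. They are the 250 bases upstream of the RefSeq start on GRCr8, 5′ to 3′ on the gene's strand. Capitals mark the TATA box (TATAAA), the M-CAT element bound by TEAD factors (CATTCC), the MEF2 box and the CArG box bound by SRF, searched on both strands.
Myoz2: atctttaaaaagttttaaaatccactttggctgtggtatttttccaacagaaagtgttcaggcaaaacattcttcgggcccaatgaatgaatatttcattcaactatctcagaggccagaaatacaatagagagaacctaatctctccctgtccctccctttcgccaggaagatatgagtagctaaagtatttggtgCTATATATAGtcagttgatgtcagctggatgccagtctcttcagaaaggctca
Myl3: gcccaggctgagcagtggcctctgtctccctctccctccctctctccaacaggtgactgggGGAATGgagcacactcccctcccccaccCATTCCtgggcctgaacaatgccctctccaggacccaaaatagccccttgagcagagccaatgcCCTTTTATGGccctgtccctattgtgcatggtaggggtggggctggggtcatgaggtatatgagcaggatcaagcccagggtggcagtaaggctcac
Acta1: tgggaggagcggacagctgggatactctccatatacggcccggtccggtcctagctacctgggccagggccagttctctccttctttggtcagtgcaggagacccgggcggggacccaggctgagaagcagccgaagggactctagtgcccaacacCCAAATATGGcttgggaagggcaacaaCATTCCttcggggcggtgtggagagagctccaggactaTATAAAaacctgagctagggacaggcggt
The windows are chr2:213852779-213853028 (minus strand), chr8:119616844-119617093 (plus strand) and chr19:68784195-68784444 (minus strand). Myoz2 holds a MEF2 box, Myl3 a CArG box and the M-CAT element on each strand, and Acta1 a CArG box with an M-CAT element and a TATA box. The window of the slow isoform Tnni1, read but not shown, held none of the marked elements. That of the fast isoform Tnni2, also not shown, held only a TATAAA match on the opposite strand, 72 to 67 bases upstream. Among all 33469 windows, a MEF2 box stood in 0.523%, a CArG box in 1.5%, the M-CAT element in 12.1% and TATAAA on either strand in 12.9%. The 35 members with windows had 39 of them, of which 3 held a MEF2 box, 3 a CArG box, 6 the M-CAT element and 9 TATAAA on either strand. The E-box CANNTG stood in 65.5% of all windows and in 31 of these 39. Acta1, which like Myl3 holds a CArG box, had a log2 fold change of -0.24, against -1.46 for Myl3. A match is a description of these letters only, and any link between an element and the log2 fold changes was not tested.

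The alpha-actinins, which crosslink actin at the Z-disc, were led per length by the fast-fibre form Actn3, at 2802 ± 389.7 against 2175 ± 1142 FPKM, over Actn2, at 846 ± 114 against 518 ± 209.8 FPKM (SD, n = 3 each, control against ACS). FPKM is scaled by library totals. With TMM scaling their log2 fold changes were -0.09 and -0.43 (edgeR adjusted p = 0.919 and 0.497), with overlapping groups. Ldb3, which ties alpha-actinin to signalling proteins, measured 1707, 1645 and 2331 CPM in control and 1921, 4354 and 1959.8 CPM in ACS muscle, high in ACS replicate 2 alone (log2 fold change 0.54, adjusted p = 0.482, or -0.004 without that library). Desmin (Des), the intermediate filament that links neighbouring Z-discs, had a log2 fold change of -0.12 and overlapping groups. Tcap, which caps titin at the Z-disc, has a row of 483 bases. It had only 26, 26 and 16 counts in control and 4, 21 and 12 counts in ACS muscle, so little can be said of it. Whether so few counts reflect the transcript or how reads were assigned to this row was not tested. Myotilin (Myot) was listed at 0 in both of its rows in every library. One of these rows overlaps that of Dcp2 on the same strand over its full length. The handling of reads that map to several places or fall in overlapping rows is not known. These zeros therefore do not show that the Myot transcript was absent.

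At the M-band, where myomesins crosslink the thick filaments, Myom2, the most abundant per length, measured 532, 470.2 and 501 FPKM in control and 202, 432 and 661 FPKM in ACS muscle, with overlapping groups (log2 fold change 0.06, adjusted p = 0.947). Myom1 had a log2 fold change of -0.33. Myom3, a myomesin found in part of the fibres, measured 98.6, 97.4 and 134 CPM in control and 176, 363 and 70.9 CPM in ACS muscle. As for Ldb3 and Mybph, ACS replicate 2 was the highest library, while ACS replicate 3 was below every control, so the groups overlapped (log2 fold change 0.88, adjusted p = 0.335, or 0.11 without ACS replicate 2). The assembly factors Unc45b, a chaperone that folds the myosin head, and Smyd1, a methyltransferase needed for myofibril assembly, measured 154 ± 3.42 against 121 ± 42.1 CPM and 313 ± 42.9 against 272 ± 86.9 CPM (SD, n = 3 each). The 3 control libraries of Unc45b were nearly equal, and ACS replicate 1 held its lowest value at 74.02 CPM.

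**Figure D3:**
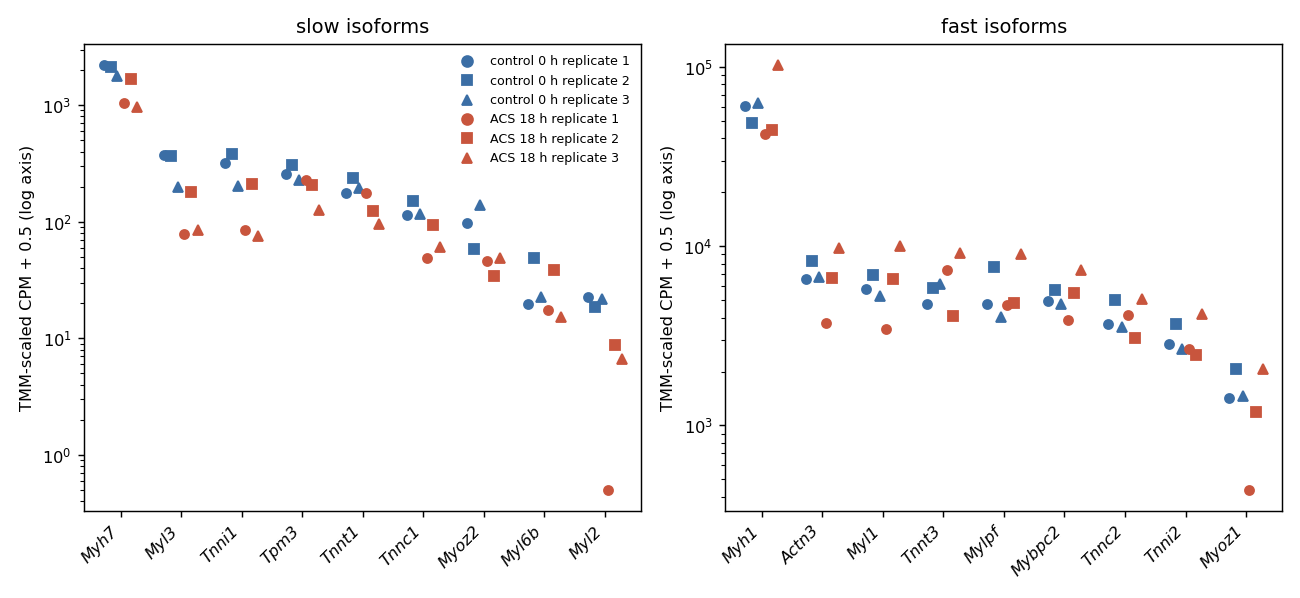
TMM-scaled CPM + 0.5 (y axis, logarithmic) of 9 slow isoforms (left) and 9 fast isoforms (right) in each library; blue points are control and red points ACS, and shapes mark the replicate. Red points lie low for the slow genes, with Myl2 at 0 in ACS replicate 1, while for fast genes the red triangle of ACS replicate 3 is the highest in 8 of 9.

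Set side by side by library, the fast and slow genes lay furthest apart in ACS replicate 3. That library was the highest of all 6 in 8 of 9 fast isoforms and the lowest in 5 of 9 slow ones. ACS replicate 1 was the lowest in 5 fast and 3 slow isoforms. A slow isoform was highest in a control library in 9 of 9 cases. The summed fast isoforms stood at 72468, 79179 and 159298 CPM in ACS replicates 1, 2 and 3 and between 93709 and 97923 CPM in control. The summed slow isoforms stood at 1713, 2580.1 and 1475 CPM in ACS muscle, all below the lowest control at 2907 CPM. The slow median stayed between -1.29 and -0.83 over all 19 alternatives, and only Myl6b turned positive in any of them, without control replicate 2 (0.12).

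Shares within a protein do not depend on the scaling of a library, so they were taken from FPKM, per length. Tnni1 made up 15.9%, 14.9% and 11.4% in control and 5.1%, 12.6% and 2.93% in ACS muscle of troponin I. ACS replicate 2 lay within the control range and the others well below it (means 14.1% ± 2.36 and 6.87% ± 5.06, SD, n = 3; two-sided exact permutation p = 0.2). Tnnt1 made up 4.15%, 4.49% and 3.53% in control and 2.72%, 3.41% and 1.19% in ACS muscle of troponin T. Here the groups did not overlap (exact permutation p = 0.1, the smallest that 3 against 3 allow). Tnnc1 made up 2.71%, 2.66% and 2.91% in control and 1.04%, 2.68% and 1.06% in ACS muscle of troponin C. ACS replicate 2 again lay with the controls (exact permutation p = 0.2). Adjusted over the 6 shares tested, p was 0.36 for each of these, so none passed, as none could with 3 libraries a group.

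Myh7 made up 10.4%, 12.3% and 8.36% in control and 7.38%, 10.8% and 2.96% in ACS muscle of the 4 listed heavy chain rows, with overlapping groups (exact permutation p = 0.3, adjusted p = 0.36). Because the Myh1 row is long and may hold several chains, its level per length depends on that model, and on counts the difference was -1.14 against -3.31 percentage points. Embryonic and perinatal chains together made up at most 0.629% in any library. Further shares were computed after the values were seen and are given as a description. Myl3 made up 7.04%, 5.88% and 4.2% in control and 2.55%, 3.14% and 0.974% in ACS muscle of Myl1 and Myl3. The 9 slow isoforms made up 4.82%, 4.13% and 3.97% in control and 2.4%, 3.45% and 1.13% in ACS muscle of the summed FPKM of slow and fast isoforms. In both, every ACS library lay below every control, and ACS replicate 3 was the lowest. Without ACS replicate 1 or without ACS replicate 3 the troponin shares and the Myh7 share remained lower in ACS muscle on average.

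**Figure D4:**
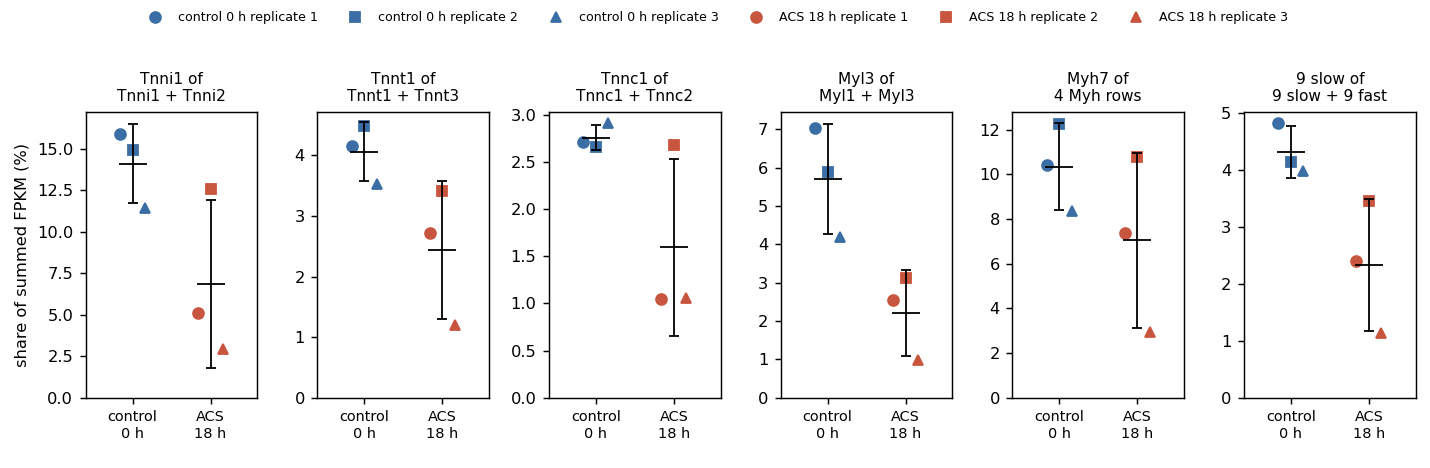
Share of the slow isoform in the summed FPKM of its protein (y axis, %, from 0) in 3 control and 3 ACS libraries (x axis); points are libraries with shapes for replicates, bars are mean ± SD. ACS replicate 2 (red square) lies nearest the controls in each panel, and ACS replicate 3 (red triangle) is lowest in all panels but that of Tnnc1.

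Other genes of the sarcomere and its attachment sites came from a list of 47, of which 38 were tested. The list gave 4 higher and 1 lower past the edgeR threshold, against 3.43% and 0.707% of all genes tested. The median of its log2 fold changes was -0.0022. Xirp1, a Xin protein that binds actin at injured stretches of the fibre and at muscle-tendon ends, measured 433, 709.9 and 416 CPM in control and 8299, 13928 and 3129.8 CPM in ACS muscle. It rose by a log2 fold change of 4.02 (SE 0.628, adjusted p = 0.0192), highest in ACS replicate 2, and by 4.03 without ACS replicate 1. Trim63, or MuRF1, the ubiquitin ligase that marks thick-filament proteins for breakdown, measured 182, 202 and 187 CPM in control and 899.8, 2045 and 996 CPM in ACS muscle. It rose by a log2 fold change of 2.79 (SE 0.403, adjusted p = 0.0153), and by 2.99 without ACS replicate 1. Klhl40, which stabilises nebulin and Lmod3, measured 119.9, 114 and 127 CPM in control and 389, 1492 and 410.1 CPM in ACS muscle. It rose by 2.67 (SE 0.551, adjusted p = 0.0395), by 2.98 without ACS replicate 1 and by 1.70 without ACS replicate 2. Its partner Lmod3 did not pass, and its ACS values all lay below control.

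Ankrd1, an ankyrin-repeat protein that binds titin and is known to respond to stretch and injury, measured 12.2, 6.24 and 36.1 CPM in control and 1966, 525 and 72.1 CPM in ACS muscle. It rose by a log2 fold change of 5.55 (SE 1.21, adjusted p = 0.0444), highest in ACS replicate 1, and by 4.04 without ACS replicate 1. It is named outside the naming rule, after its values were seen. Myh7b, a slow-type myosin gene related to Myh7, measured 24.4, 38.4 and 20.8 CPM in control and 9.73, 7.0 and 7.48 CPM in ACS muscle. It fell by 1.79 on the log2 scale (SE 0.319, adjusted p = 0.0286; log2 fold change -1.95 without ACS replicate 1), against a value of -0.72 for Myh7 that did not pass. The groups did not overlap for 16.7% of all genes tested (higher in ACS) and 14.8% (lower), and for each of these 5 genes. Without any 1 control library 0 of all genes passed the edgeR threshold, these included (adjusted p from 0.0791 to 0.199), and 2075, 2063 and 2289 genes had an unadjusted p below 0.05. In the absence of ACS replicate 2, Ankrd1 and Myh7b did not pass (adjusted p = 0.0685 and 0.0582). Without both "ji" libraries Trim63, Klhl40 and Myh7b did not pass (adjusted p = 0.0629, 0.0847 and 0.0716), nor did Klhl40 and Ankrd1 with the "ji" term (0.0659 and 0.108). Klhl40 also missed the threshold by library totals (0.0523) and with limma on log2(FPKM + 1) and log2(FPKM + 0.1) (0.0756 and 0.0878). Ankrd1 also missed it with limma-voom (0.0538) and with limma on log2(FPKM + 0.1) (0.0529). Of 19 alternatives, Xirp1 passed in 16, Trim63 in 15, Myh7b in 14, and Klhl40 and Ankrd1 in 11 each, with the same direction in all 19.

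**Figure D5:**
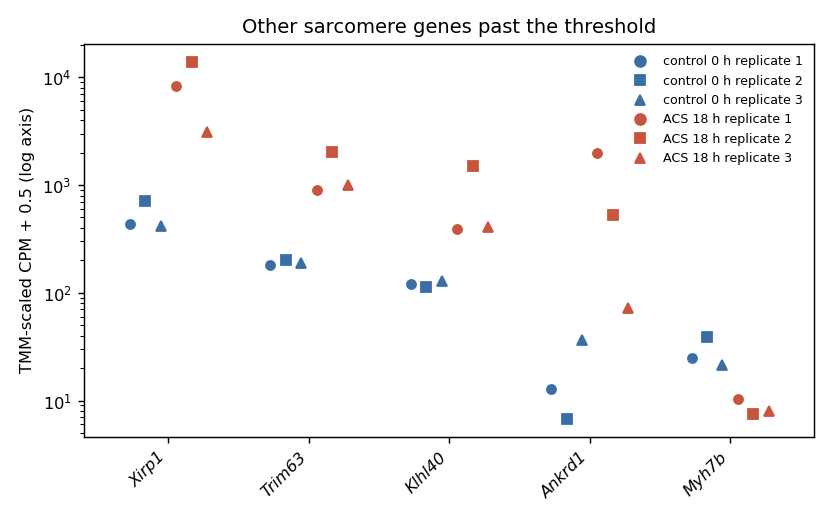
TMM-scaled CPM + 0.5 (y axis, logarithmic) of the 5 other sarcomere genes past the edgeR threshold, in 3 control (blue) and 3 ACS (red) libraries. All red points lie above the blue ones for Xirp1, Trim63, Klhl40 and Ankrd1, and below them for Myh7b.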

How the data were processed

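RNA depleted of ribosomal RNA was sequenced in 6 libraries, per the labels' protocols. The authors deposited whole-number read counts and FPKM values for 30957 genes, per the file headers. Per the submitters' processing notes, the tools included HISAT2 2.0.4 and StringTie 1.3.0, with build Rnor 6.0. For the counting, its tool, strand setting and handling of multiply mapped reads were not given in the sources used here. Paralogs (Myh6 and Myh7, Acta1 and Actc1), genes with several rows (Myot) and antisense overlaps (Tmod1 and Lmod2) are therefore uncertain. The deposited FPKM equalled the count divided by 1 length per gene and the column total in 13409 of 13409 genes checked (within 0.1%). Groups and replicate numbers came from the titles, since the treatment field reads ACS for all libraries.

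Genes passing filterByExpr (minimum count 10, total 15), 12873 in all, were fitted with edgeR 4.0.16 (TMM, quasi-likelihood, group only, threshold 0.05, common coefficient of variation 0.381) in R 4.3.3. Standard errors derive from the F statistic. Shares were tested by exact permutation (scipy 1.17.1), and depth ranged from 14340865 to 21003928 counts. No libraries were duplicates (chi-square per degree of freedom 38.2 or more). DESeq2 1.42.0, limma 3.58.1 and other settings were alternatives. Fits were tested on simulated data.

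The members and lists were chosen with earlier results of these data known. Any member may be named; from the list of other genes, up to 3 per direction by adjusted p. Promoter windows were planned for members past the threshold; with none, those shown were chosen after seeing values.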

Additional observations from a re-analysis of the deposited data

How the results depend on the processing

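Of 796 member values under 19 alternatives, 702 kept direction and side of the threshold, 7 passed where the reported value did not, and 87 changed sign; 20 members never changed sign, among them Myl3, Tnni1, Tnnc1, Myoz2 and Myh7. The cause of these changes was not tested. Members called lower numbered 0, or 3 with DESeq2, 1 by library totals, and 0 to 1 when a library was left out; members called higher numbered 0 to 1 when a library was left out. All genes called numbered 533, against 1744 with DESeq2, 333 with limma-voom, 330 with limma on log2(FPKM + 0.1), 908 with no filter, 280 with a term for the 2 libraries whose description carries "ji", 201 without both "ji" libraries, and 0 to 1684 when a library was left out. Calls split into 442 higher and 91 lower genes, against 342 and 225 by library totals, 249 and 268 with limma on log2(FPKM + 1) and 199 and 131 with 0.1 as the pseudocount. The difference in the sarcomere share of counts ranged from -8.32 to 0.27 percentage points when a library was left out. Same-numbered libraries did not deviate together (correlations -0.0659, 0.00137 and 0.0329). With so few libraries this cannot show whether samples were paired, and replicate 3 of both groups carries "ji" in its description. With the replicate block 505 genes and 0 members were called, and Ankrd1 did not pass (adjusted p = 0.0629).

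For members near 0 the sign of the log2 fold change depended on scaling. Scaled by library totals the sign turned for Mybpc2 (-0.17), Myh1 (-0.16), Myl1 (-0.11), Mylpf (-0.12), Myom2 (-0.21), Neb (-0.15), Tnnc2 (-0.32), Tnni2 (-0.28), Tnnt3 (-0.05) and Tpm1 (-0.063). With limma on log2(FPKM + 1) the sign turned for Mybpc2 (-0.25), Myh1 (-0.31), Myl1 (-0.29), Mylpf (-0.17), Myom2 (-0.37), Neb (-0.17), Tmod1 (-0.076), Tnnc2 (-0.34), Tnni2 (-0.33), Tnnt3 (-0.10) and Tpm1 (-0.16). With limma on log2(FPKM + 0.1) the sign turned for Mybpc2 (-0.25), Myh1 (-0.31), Myh8 (-0.15), Myl1 (-0.29), Mylpf (-0.17), Myom2 (-0.37), Neb (-0.17), Tmod1 (-0.079), Tnnc2 (-0.34), Tnni2 (-0.33), Tnnt3 (-0.10) and Tpm1 (-0.16). Without both "ji" libraries the sign turned for Mybpc2 (-0.19), Myh1 (-0.34), Myl1 (-0.35), Mylpf (-0.39), Myom2 (-0.38), Tmod1 (-0.003), Tnnc2 (-0.28), Tnni2 (-0.35) and Tpm1 (-0.19). With TMM factors computed without the members the sign turned for Tnnc2 (-0.032) and Tnni2 (-0.011). With limma-voom the sign turned for Myom2 (-0.062), Tnnc2 (-0.004) and Tnni2 (-0.007). With no filter the sign turned for Tnnc2 (-0.035) and Tnni2 (-0.01). With the replicate block the sign turned for Myom2 (-0.042), Tnnc2 (-0.002) and Tnni2 (-0.003). With a "ji" term the sign turned for Myom2 (-0.024), Tnnc2 (-0.007) and Tnni2 (-0.011). With TMM factors computed without mitochondrial genes the sign turned for Tnnc2 (-0.017). With DESeq2 the sign turned for Tnnc2 (-0.006).

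Leaving out 1 library at a time gave log2 fold changes on both sides of 0 for 19 members. They ran for Acta1 from -0.60 to 0.10, Actc1 from -0.88 to 0.051, Actn3 from -0.47 to 0.20, Des from -0.43 to 0.17, Ldb3 from -0.004 to 0.74 and Mybpc1 from -0.39 to 0.007. The range was for Mybpc2 from -0.14 to 0.32, Myh1 from -0.41 to 0.36, Myh8 from -0.57 to 1.71, Myl1 from -0.27 to 0.47, Myl6b from -0.96 to 0.12 and Mylk2 from -0.38 to 0.20. Likewise it was for Mylpf from -0.21 to 0.45, Myom2 from -0.36 to 0.33, Smyd1 from -0.42 to 0.029, Tnnc2 from -0.18 to 0.14, Tnni2 from -0.26 to 0.14 and Tpm1 from -0.13 to 0.41. Those of the rest ran for Tpm2 from -0.41 to 0.076.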

Other observations

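Outside the tested shares, Myl2 made up 0.699%, 0.361% and 0.789% in control and 0%, 0.258% and 0.102% in ACS muscle of the regulatory light chains Mylpf and Myl2 (FPKM), lower in every ACS library. Tpm3 made up 1.28%, 1.52% and 1.32% in control and 1.5%, 1.34% and 0.455% in ACS muscle of the tropomyosins, low in ACS replicate 3 alone. Actn2 made up 27.7%, 18.3% and 24.2% in control and 23.96%, 23.7% and 13.98% in ACS muscle of the alpha-actinins, again lowest in ACS replicate 3. Myoz2 made up 5.62%, 2.52% and 8.4% in control and 8.33%, 2.53% and 2.19% in ACS muscle of the 3 calsarcins, so its share overlapped between groups although its level did not. Cardiac actin Actc1 was a small part of the summed FPKM of Acta1 and Actc1 in every library, at 0.0207% to 0.0527%. These shares were computed after the values were seen and carry no test.

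Of 7 tested markers of satellite cells and young muscle cells, 2 rose (Myf5 and Myf6) and 1 fell (Myod1) with edgeR. The background was 3.43% of all genes tested higher and 0.707% lower. Pax7 and Cdh15 (log2 fold change -0.79 and -0.49) and Myog and Ncam1 (0.92 and 0.10) did not pass (edgeR adjusted p = 0.356, 0.432, 0.459 and 0.888). Myf5, Myf6 and Myod1 are named after their values were seen. Of 19 alternatives Myf5 passed in 10, Myf6 in 13 and Myod1 in 13, all with unchanged direction. None of the 3 passed without any 1 control library. Without ACS replicate 2 Myf5 and Myf6 did not pass, and without both "ji" libraries Myf5 and Myod1 did not. Myf6, the regulator of mature fibres, measured 51.6, 54.99 and 58.02 CPM in control and 288, 398 and 119 CPM in ACS muscle. Its log2 fold change was 2.29 (SE 0.428, adjusted p = 0.0309) with edgeR. Myf5, an early factor of muscle precursors, had 11, 21 and 31 counts in control and 53, 58 and 91 counts in ACS muscle (log2 fold change 2.18, edgeR adjusted p = 0.042). Myod1 measured 41.2, 49.5 and 52.1 CPM in control and 15.6, 25.6 and 17.5 CPM in ACS muscle (log2 fold change -1.28, edgeR adjusted p = 0.0439). Embryonic Myh3 overlapped between the groups. Its highest ACS value, 88.3 CPM in replicate 3, lay below control replicate 1 (121 CPM) and above control replicates 2 and 3 (69.99 and 82.7 CPM).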
